A study of Mus musculus with 8 samples.

Results

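The T-box genes Tbx1, Tbx2, Tbx3, Tbx4, Tbx5, Tbx18 and Tbx20 were followed in the outflow tract (OFT) and right ventricle (RV) of mouse embryos at E10.5. These 7 genes were taken by symbol from a table of 20701 gene symbols, and each was represented by its transcript with the highest mean read count over all libraries. RNA from dissected tissue of single C57BL/6 embryos was sequenced in 8 libraries, 4 from wild-type embryos (CTRL) and 4 from Isl1 hypomorphic embryos (Isl1_hypo). The hypomorphs were homozygous for a targeted Isl1 allele (f;neo/f;neo) that lowers Isl1 expression without removing it and is present in every cell of the embryo. The comparison asked how lower Isl1, a LIM-homeodomain factor of second heart field progenitors, went with the T-box genes of the structures these progenitors build.

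T-box factors share a DNA-binding domain and act as activators or repressors of transcription during the patterning of the heart. Tbx1 keeps second heart field progenitors growing and is the main gene of DiGeorge syndrome. Tbx2 and Tbx3 repress the chamber programme in the atrioventricular canal, the outflow tract and the conduction system, and Tbx5 and Tbx20 drive chamber muscle genes together with Nkx2-5 and Gata4. Tbx18 marks the sinus horns and the epicardium, and Tbx4 is best known from the hindlimb, the lung mesenchyme and the allantois.

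Isl1 itself stood at 29.6, 61.5, 46.2 and 51.3 CPM (read counts scaled to library size with edgeR's TMM factors) in the CTRL libraries 1 to 4 and at 12.7, 6.86, 7.71 and 11.4 in the Isl1_hypo libraries 1 to 4. It fell to 20.5% of its CTRL mean (log2 fold change −2.29, SE 0.26, adjusted p = 0.0077 in edgeR's quasi-likelihood test with Benjamini-Hochberg adjustment), in the direction of the labels. The libraries held between 18422245 and 46678973 counts. Isl1_hypo replicate 3 stood apart, with the fewest detected genes (14305) and the lowest median rank correlation with its own group (0.97 against 0.983 to 0.989 elsewhere). Isl1_hypo replicate 1 held epithelial RNA that the other libraries nearly lacked: Cldn6 had 708 counts there against 0 to 8 elsewhere, Cdh1 282 against 0 to 9, and Esrp1 111 against 0 to 8. Globin genes, which mark red blood cells, took 0.212% to 1.19% of the counts in CTRL and 1.18% to 2.44% in Isl1_hypo. Y-linked genes were expressed in 1 CTRL and 3 Isl1_hypo libraries, so the groups also differed in the number of male embryos.

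None of the 7 T-box genes passed the adjusted threshold of 0.05 (edgeR, Benjamini-Hochberg over 13769 genes tested), where 0.269% of all tested genes did (0.145% higher and 0.123% lower). DESeq2 and limma-voom also called 0 of the 7. The values were not all alike, however. Tbx4 and Tbx20 were lower in every Isl1_hypo library than in any CTRL library, Tbx18 was at 209.9% of its CTRL mean, Tbx1, Tbx2 and Tbx5 overlapped between the groups, and Tbx3 was spread to both sides of its CTRL range in Isl1_hypo. At an unadjusted p under 0.05 there were 3 members, against 11.9% of all tested genes: Tbx18 with higher values, beside 5.69% of genes, and Tbx4 and Tbx20 with lower values, beside 6.17%. The 2 members whose groups did not overlap stand beside 8.5% of all tested genes (4.44% lower and 4.06% higher). All 7 passed the filter on low counts, Tbx1 and Tbx4 only through the CTRL group. Of the 7, 4 had a lower and 3 a higher fitted value. The median log2 fold change was −0.28 over the members and 0.01 over all genes.

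**Figure D1:**
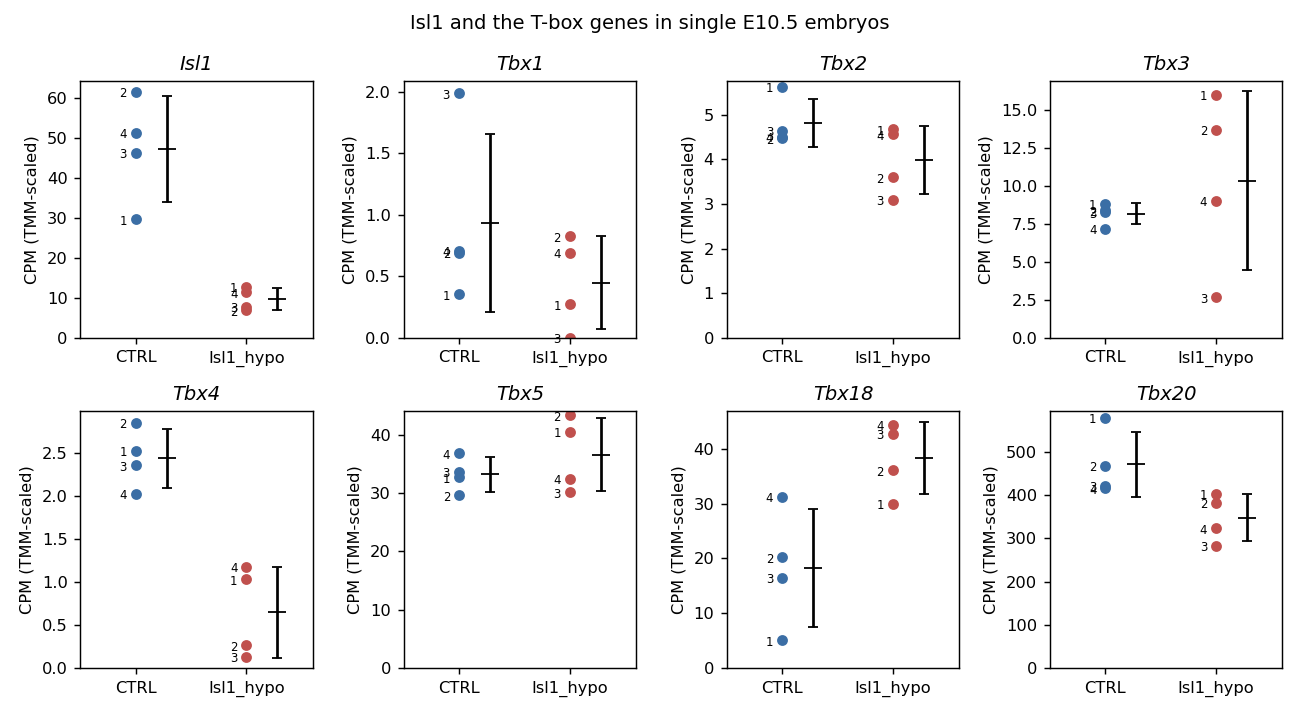
Expression of Isl1 and the 7 T-box genes in TMM-scaled CPM (vertical axis) in the 4 CTRL (blue) and 4 Isl1_hypo (red) libraries; numbers are replicates, and the bars give the mean ± SD. The groups do not overlap for Isl1, Tbx4 and Tbx20, while 3 of the 4 Isl1_hypo values of Tbx18 lie above every CTRL value.

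The promoters of the 2 members on chromosome 9, Tbx18 and Tbx20, whose values went opposite ways, are shown for the letters they hold. They are the 250 bases before the RefSeq start in GRCm38.p6, 5′ to 3′ on the coding (minus) strand. Matches of 4 motifs, on either strand, are in capitals. The T-box motif was AGGTGT, the letters that T-box proteins prefer. The motif taken for LIM homeodomain factors such as Isl1 was CTAATG. The core taken for Nkx2-5 and its relatives was AAGTG, and the GATA factor motif was AGATAA. The matches shown do not overlap each other.
Tbx18 (chr9:87731261-87731510): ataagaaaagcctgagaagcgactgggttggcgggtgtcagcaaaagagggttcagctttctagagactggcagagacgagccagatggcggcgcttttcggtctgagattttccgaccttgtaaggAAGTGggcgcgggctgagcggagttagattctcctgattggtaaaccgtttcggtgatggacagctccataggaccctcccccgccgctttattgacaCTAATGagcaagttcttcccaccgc
Tbx20 (chr9:24774304-24774553): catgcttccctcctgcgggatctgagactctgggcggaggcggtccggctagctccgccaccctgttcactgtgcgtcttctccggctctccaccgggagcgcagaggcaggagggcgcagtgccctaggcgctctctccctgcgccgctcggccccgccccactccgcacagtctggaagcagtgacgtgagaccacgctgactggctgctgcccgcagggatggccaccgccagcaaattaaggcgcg
The Tbx18 window held 1 CTAATG and 1 AAGTG, and the Tbx20 window held none of the 4. Among 32851 promoter windows of this length the LIM homeodomain motif was found in 6.36%, the Nkx2-5 core in 40.7%, the T-box motif in 11.8% and the GATA motif in 9.99%. Promoters of 4 of the 7 genes were matched. The Tbx4 window held no match, 1 of 2 Tbx1 windows held AGGTGT, and Tbx2, Tbx3 and Tbx5 are named only. A match is a description of letters and was not tested for binding.

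Tbx1, the heart field member, was near the lower end of what was measured. Its read counts were 11, 28, 80 and 33 in CTRL and 5, 22, 0 and 20 in Isl1_hypo, or 0.352, 0.689, 1.99 and 0.705 CPM against 0.272, 0.824, 0 and 0.692 CPM. CTRL replicate 3 was the highest library and Isl1_hypo replicate 3 the lowest, and the other 6 libraries were mixed between the groups. The log2 fold change was −1.06 (SE 0.93, edgeR adjusted p = 0.677), and it was −0.38 without CTRL replicate 3 and −0.63 without Isl1_hypo replicate 3. The 95% interval from −2.88 to 0.77 left a difference of either sign undetected at this depth. A count of 0 in Isl1_hypo replicate 3 allows up to 3 counts. Tbx1 lies on mouse chromosome 16, from 18581806 to 18588113 on the minus strand (mm9), and its 3 annotated transcripts had nearly the same counts.

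Tbx2, a repressor of chamber genes in the cushion-forming segments, was measured at 5.63, 4.48, 4.64 and 4.51 CPM in CTRL and at 4.67, 3.60, 3.10 and 4.57 CPM in Isl1_hypo. Both groups met at about the same values, with Isl1_hypo replicates 1 and 4 inside the CTRL range. Its log2 fold change was −0.28 (SE 0.25, edgeR adjusted p = 0.687), with a 95% interval from −0.76 to 0.21. It was −0.17 without Isl1_hypo replicate 3. With the globin level of each library, the mean log2 CPM of the globin genes, in the fit it was −0.09 (SE 0.39).

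Tbx3, the repressor of the chamber programme in the conduction system, was even among the CTRL embryos and uneven among the hypomorphs. It stood at 8.83, 8.41, 8.27 and 7.18 CPM in CTRL and at 16.02, 13.7, 2.65 and 9.03 CPM in Isl1_hypo. In the hypomorphs 3 libraries were above every CTRL library and replicate 3 was below all of them, so the coefficient of variation was 8.6% in CTRL and 57.0% in Isl1_hypo. The log2 fold change was 0.34 (SE 0.41, edgeR adjusted p = 0.775). The value moved with single libraries and with the model. Without Isl1_hypo replicate 3 it was 0.66 (SE 0.21, edgeR unadjusted p = 0.00949, adjusted p = 0.273), without Isl1_hypo replicate 1, the library with epithelial RNA, it was 0.05 (SE 0.42, edgeR adjusted p = 0.97), and without Isl1_hypo replicate 2 it was 0.16. With the globin level in the fit it was 0.85 (SE 0.60). The Tbx3 locus on chromosome 5, from 120120678 to 120134733 (plus strand, mm9), overlaps the antisense gene Gm2301 by 697 bases, and the counts did not use strand.

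Tbx4 showed the largest fitted difference of the 7. It was at 2.53, 2.85, 2.36 and 2.03 CPM in CTRL (79, 116, 95 and 95 counts) and at 1.03, 0.262, 0.126 and 1.18 CPM in Isl1_hypo (19, 7, 4 and 34 counts). All 4 Isl1_hypo libraries were below the CTRL range, and replicates 2 and 3 were the lowest. The mean was 26.6% of CTRL (log2 fold change −1.92, SE 0.64, edgeR unadjusted p = 0.0111, adjusted p = 0.287), and DESeq2 gave an adjusted p of 0.0688, the lowest for Tbx4 in any alternative. Tbx4 passed the filter on low counts only through the CTRL group, where it was high, and its fold is given as 1 of the 7 members. The size of this fold rests on the few Isl1_hypo counts. Without the filter it was −1.93 (SE 0.63, edgeR adjusted p = 0.292). By exact 2-sided permutation of its log2 CPM, Tbx4 had p = 0.0286, which no pair of groups of 4 libraries can go below. Leaving out 1 library at a time kept the log2 fold change between −2.42 and −1.57. Of the lung and limb markers, Sftpc and Lmx1b were at 0 in every library and Nkx2-1 reached at most 3 counts, while Prrx2 and Shox2, the 2 that could be tested, had log2 fold changes of −0.36 and 1.38 (edgeR adjusted p = 0.475 and 0.33). The summed CPM of the 8 markers, 14.1 to 22.5 in CTRL and 12.1 to 19.4 in Isl1_hypo, came mostly from Prrx2 (17.6 and 13.7 CPM on average). Their part in the Tbx4 values was not tested.

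Tbx2 and Tbx4 lie side by side on chromosome 11, from 85646053 to 85655450 and from 85699924 to 85729599 (both plus strand, mm9), 44.5 kb apart. Over the 8 libraries their log2 CPM had a Pearson r of 0.892, and 0.87 after subtraction of the group means. The points share depth and tissue composition, so this is a description only. The other 7 genes listed around this pair did not share the lower values. With 6 higher and 1 lower, their median log2 fold change was 0.12 (0.06 without CTRL replicate 2, 0.20 without Isl1_hypo replicate 1), and the smallest adjusted p was that of the phosphatase gene Ppm1d (0.40, edgeR adjusted p = 0.425), followed by the helicase gene Brip1 (0.52) and Ints2 (0.12).

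Tbx5, which activates chamber and septation genes, was nearly level. It stood at 32.7, 29.6, 33.7 and 36.8 CPM in CTRL and at 40.5, 43.3, 30.1 and 32.4 CPM in Isl1_hypo. Isl1_hypo replicates 1 and 2 were above the CTRL libraries and replicates 3 and 4 were among them. The log2 fold change was 0.14 (SE 0.15, edgeR adjusted p = 0.736), with a 95% interval from −0.15 to 0.43. It was 0.09 without CTRL replicate 2 and also without Isl1_hypo replicate 1, 0.04 without Isl1_hypo replicate 2 and 0.22 without Isl1_hypo replicate 3. With the globin level in the fit it was 0.07 (SE 0.24). Tbx5 lies 149.9 kb from Tbx3 on chromosome 5, from 120284672 to 120335227 (plus strand, mm9). Of the 6 genes listed around this pair 3 could be tested and Lhx5 was at 0 in every library. All 3 had lower fitted values, with no adjusted call and a median of −0.27: Rbm19 at −0.27, Plbd2 at −0.37 and Med13l at −0.27. Left ventricular markers, which would show tissue where Tbx5 is strong, had 2 higher and 4 lower of 6, a median of −0.17 and no adjusted call, with Pln (0.45, edgeR adjusted p = 0.198), Hand1 (−1.05) and Gja5 (0.24) at the smallest p. Their summed CPM, 1251 to 1523 in CTRL and 1397 to 1847 in Isl1_hypo, came mostly from Pln, and without it the sum was 525.7 to 610.1 in CTRL and 327.5 to 564.0 in Isl1_hypo.

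Tbx20, needed for chamber muscle growth and cushion formation, was by far the most abundant T-box transcript. It stood at 579.5, 468.3, 421.5 and 415.7 CPM in CTRL and at 403.4, 382.5, 282.6 and 323.4 CPM in Isl1_hypo. On the RefSeq entry of 6426 bases, which represented the gene, no Isl1_hypo library reached the lowest CTRL library. The mean was 73.8% of CTRL (log2 fold change −0.44, SE 0.14, edgeR unadjusted p = 0.0105, adjusted p = 0.283). DESeq2 gave an adjusted p of 0.106, and the exact permutation p was 0.0286. When the globin level of each library was added to the fit, Tbx20 had a log2 fold change of −0.12 (SE 0.19, edgeR adjusted p = 1). The globin share of the counts, which is not the fitted covariate, overlapped between the groups only through CTRL replicate 4 and Isl1_hypo replicate 2. Endothelial and cushion markers, which mark other cells that make Tbx20, had medians of −0.17 over 10 genes (3 higher, 7 lower) and −0.39 over 12 genes (2 higher, 10 lower), and myocardial markers −0.11 over 13 (6 higher, 7 lower), with no adjusted call among them. Their summed CPM in CTRL and Isl1_hypo was 878.1 to 1022 and 761.9 to 928.4 for endothelium, 2084 to 3046 and 1403 to 2415 for cushion mesenchyme, and 39440 to 48230 and 41770 to 49750 for myocardium, and their part in the Tbx20 values was not tested. The leading genes were Pecam1 (−0.58), Cdh5 (−0.54) and Emcn (0.23) for endothelium, Msx2 (−1.44), Twist1 (−0.57) and Vcan (−0.40) for cushion, and Rspo3 (−0.67), Myh7 (−0.49) and Ttn (−0.90) for myocardium.

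The Tbx20 locus (chromosome 9, from 24527648 to 24578746, minus strand, mm9) was counted as a RefSeq entry of 6426 bases, which represented the gene here, and as entries of 1792 and 1418 bases. The exons of these entries were not used here. The GENCODE models of Tbx20 have 4043, 1348 and 1792 bases, and only the last of these is also the length of a RefSeq entry. These long and short models share 6 exons and 1344 bases. Reads on the entry of 1418 bases therefore cannot be taken as the level of a short isoform. As a ratio to the reads on the long entry, they were 11.7%, 9.18%, 14.0% and 13.3% in CTRL and 13.4%, 14.7%, 5.76% and 8.29% in Isl1_hypo. This ratio, chosen after the values were seen, overlapped between the groups (exact permutation p = 0.514), with Isl1_hypo replicates 3 and 4 at the bottom. The CPM on the entry of 1418 bases overlapped too, at 43.0 to 67.6 in CTRL and 16.3 to 56.3 in Isl1_hypo. With every transcript fitted, the entries of 1418 and 1792 bases had log2 fold changes of −0.55 and −0.54 (edgeR adjusted p = 0.507 and 0.502).

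Tbx18, the member of the sinus horns and the epicardium, had the only higher values with an unadjusted p under 0.05. It stood at 5.05, 20.2, 16.5 and 31.3 CPM in CTRL and at 30.0, 36.2, 42.8 and 44.4 CPM in Isl1_hypo. Replicate 1 of CTRL was far below the rest, and CTRL replicate 4 was above Isl1_hypo replicate 1, so the groups overlapped. The log2 fold change was 1.07 (SE 0.39, edgeR unadjusted p = 0.0196, adjusted p = 0.314), and the exact permutation p was 0.0571. It was 0.75 (SE 0.23) without CTRL replicate 1 and 0.31 (SE 0.53) with the globin level as a covariate, against 1.07 with neither step, and edgeR gave no adjusted p under 0.05 in either. Without CTRL replicate 4 it was 1.46 (SE 0.38, edgeR adjusted p = 0.214). With the replicate number as a block it was 1.29 (SE 0.30, edgeR adjusted p = 0.189).

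All 9 other epicardial markers had higher fitted values, 8 of them at an unadjusted p under 0.05 (5.69% of all tested genes) and 6 without overlap (4.06%), with a median log2 fold change of 1.24, and none passed the adjusted threshold. Upk3b, a surface protein of mesothelium, was at 89.9 ± 54.6 CPM in CTRL and 259.2 ± 95.9 CPM in Isl1_hypo (SD, n = 4 each, log2 fold change 1.53, edgeR adjusted p = 0.224), the guidance factor Sema3d had 1.32 and the epicardial regulator Wt1 had 1.07 (edgeR adjusted p = 0.23 and 0.268). The summed CPM of the 9 markers was 90.7, 285.6, 274.3 and 442.6 in CTRL and 556.0, 577.1, 887.7 and 521.2 in Isl1_hypo, and the lowest library, CTRL replicate 1, was also the lowest for Tbx18. Tbx18 as a share of that sum was 5.57%, 7.07%, 6.02% and 7.07% in CTRL and 5.40%, 6.26%, 4.82% and 8.52% in Isl1_hypo, so the share overlapped where the level of the markers did not. Over the 8 libraries, Tbx18 correlated with Wt1 and Tcf21 (Pearson r of log2 CPM 0.967 each), Bnc1 (0.982) and Lrrn4 (0.975), and least with Msln (0.281). In bulk tissue, more or fewer cells of a type and more or less RNA per cell cannot be told apart. Of 9 atrial and sinus venosus genes, which mark the other source of Tbx18, 6 had higher and 3 lower fitted values. Of these, Nr2f2, a nuclear receptor of atrial identity, was at 13.1 ± 3.58 CPM in CTRL and 25.7 ± 8.48 CPM in Isl1_hypo (SD, n = 4 each), without overlap (0.97, edgeR adjusted p = 0.173), and the sinus node factor Shox2 had 1.38 (edgeR adjusted p = 0.33). Hcn4, the pacemaker channel gene of the sinus venosus, had −0.69 and the atrial regulator Nr2f1 −0.24 (edgeR), so the genes of this list did not share a direction. These 4 were named after their values were seen. The summed CPM, 5484 to 7130 in CTRL and 6028 to 8612 in Isl1_hypo, came mostly from Myl7 (5945 and 6426 CPM on average), which the myocardial list holds too. Among them the natriuretic peptide gene Nppa rose and the calcium pump regulator Sln fell (−2.28, edgeR adjusted p = 0.0172), from 5.85 ± 1.20 CPM to 1.20 ± 0.27 CPM (SD, n = 4 each). Sln had an adjusted p above 0.05 without CTRL replicate 1 (0.0728), without CTRL replicate 3 (0.0929) and without Isl1_hypo replicate 4 (0.0597), and it had −2.33 with the globin covariate (edgeR adjusted p = 0.519).

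**Figure D2:**
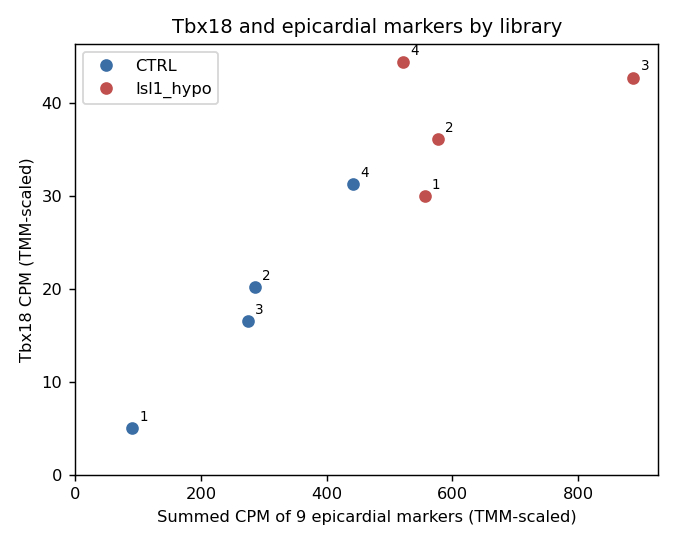
Tbx18 (vertical axis, CPM) against the summed CPM of 9 other epicardial markers (horizontal axis) in each CTRL (blue) and Isl1_hypo (red) library; numbers are replicates. Every Isl1_hypo library has a higher marker sum than the highest CTRL library at 442.6, and CTRL replicate 1 is lowest on both axes.

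Per length, Tbx20 was the main T-box transcript of this tissue. In the deposited RPKM (reads scaled to transcript length and library size), the CTRL level was 45.1 ± 7.90 for Tbx20, 5.18 ± 0.46 for Tbx5, 2.39 ± 1.41 for Tbx18, 1.05 ± 0.10 for Tbx3, 0.832 ± 0.11 for Tbx2, 0.508 ± 0.07 for Tbx4 and 0.308 ± 0.23 for Tbx1 (SD, n = 4). Tbx18 and Tbx3, Tbx3 and Tbx2, and Tbx4 and Tbx1 overlapped in this order, and the other neighbours did not. In Isl1_hypo the RPKM levels were 32.7 ± 5.64 for Tbx20, 5.62 ± 1.04 for Tbx5, 4.94 ± 0.80 for Tbx18, 1.32 ± 0.76 for Tbx3, 0.676 ± 0.14 for Tbx2, 0.147 ± 0.12 for Tbx1 and 0.133 ± 0.11 for Tbx4 (SD, n = 4). There Tbx18 overlapped Tbx5 and Tbx4 came last. The neighbours that overlapped in Isl1_hypo were Tbx5 and Tbx18, Tbx3 and Tbx2, and Tbx1 and Tbx4.

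Of the summed RPKM of the 7 genes, Tbx20 took 86.7%, 81.8%, 79.4% and 76.5% in CTRL and 74.1%, 72.0%, 70.6% and 69.9% in Isl1_hypo. Tbx18 took 1.04%, 4.85%, 4.28% and 7.92% in CTRL and 7.59%, 9.36%, 14.7% and 13.2% in Isl1_hypo. The RPKM ratio of Tbx20 to Tbx18 was 83.3, 16.9, 18.6 and 9.65 in CTRL and 9.76, 7.69, 4.80 and 5.29 in Isl1_hypo, with CTRL replicate 4 and Isl1_hypo replicate 1 at about the same value. Over the 8 libraries log2 CPM of Tbx18 and Tbx20 had a Pearson r of −0.877, and −0.756 after subtraction of the group means.

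**Figure D3:**
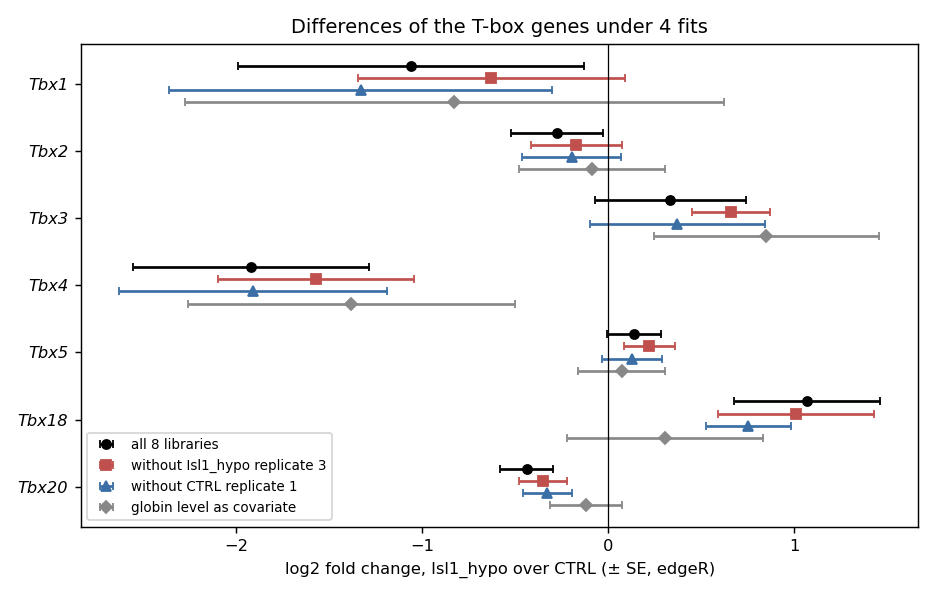
Fitted log2 fold change of Isl1_hypo over CTRL (horizontal axis, ± SE) for each T-box gene with all 8 libraries, without Isl1_hypo replicate 3, without CTRL replicate 1, and with the globin level as a covariate. Tbx4 stays lowest in all 4 fits (−1.92, −1.57, −1.91 and −1.38).

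The genes whose pattern over the 8 libraries was most like each member were found among 10743 genes with a mean of at least 5 CPM, by Pearson r of log2 CPM. For Tbx4 they were Pcnt (0.983), the cartilage collagen gene Col9a1 (0.981) and Rhoc (0.971), and Col9a1 itself had a log2 fold change of −2.06 (edgeR adjusted p = 0.0657). For Tbx20 they were the Wnt antagonist gene Frzb (0.985), the basement membrane collagen gene Col4a1 (0.981) and the phosphatase gene Ptprm (0.975). For Tbx18 they were C1ql3 (0.986), Grhpr (0.983) and the epicardial factor Bnc1 (0.982). The closest to Tbx2 were Trip11 (0.996), Hykk (0.987) and BC029214 (0.983), and those to Tbx3 were Ap1b1 (0.98), Map2k3 (0.979) and Zfp207 (0.977). Tbx5 was closest to Mmd (0.981), Abat (0.98) and Slc11a2 (0.966), and Tbx1 to Gbf1 (0.956), Wars (0.952) and Rrp12 (0.952). With n = 8 libraries and this many genes such values are a description.

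Of 10 other T-box family genes, 8 were too low to test. Mga, which carries a T-box and binds Max, had a log2 fold change of 0.14. Tbx6, a gene of the paraxial mesoderm, had 10, 1, 3 and 7 counts in CTRL and 12, 22, 18 and 11 in Isl1_hypo, and it passed the filter on low counts only through the Isl1_hypo group, so no fold is given.

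Of 18 protein partners and cofactors of T-box factors, 13 had lower and 5 higher fitted values, with a median of −0.13 (−0.22 without Isl1_hypo replicate 4), and 5 of the lower had an unadjusted p under 0.05 (6.17% of all tested genes), but none passed the adjusted threshold. The chromatin remodellers Chd4 (280.8 ± 13.6 CPM in CTRL and 215.7 ± 22.4 in Isl1_hypo, SD, n = 4) and Smarca4 (295.4 ± 13.8 and 226.2 ± 24.99) and the muscle regulator Mef2c had log2 fold changes of −0.38, −0.38 and −0.23 (edgeR adjusted p = 0.188, 0.195 and 0.352).

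Bmp4, the outflow ligand that induces Tbx2 and Tbx3, fell from 226.7 ± 16.4 CPM in CTRL to 118.1 ± 16.8 CPM in Isl1_hypo (SD, n = 4 each, log2 fold change −0.94, SE 0.12, edgeR adjusted p = 0.0172). Its adjusted p was 0.0626 without CTRL replicate 2 and 0.0733 without CTRL replicate 3, and it was below 0.05 in the other 6 fits without 1 library. With the globin covariate Bmp4 had −0.79 (edgeR adjusted p = 1). Of 22 signals tested of 26, 14 had lower and 8 higher fitted values, with Bmp4 as the only adjusted call. Their median of −0.17 was −0.01 without Isl1_hypo replicate 3 and also with the globin covariate, and Shh was at 0 in every library.

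Downstream of Tbx1, the growth factor gene Fgf10, a product of second heart field progenitors, fell from 25.5 ± 0.49 CPM to 13.4 ± 1.95 CPM (SD, n = 4 each, log2 fold change −0.93, SE 0.14, edgeR adjusted p = 0.031). It was the only adjusted call among 18 genes tested of 21, of which 13 were lower and 5 higher with a median of −0.14 (−0.21 without CTRL replicate 1, −0.23 without Isl1_hypo replicate 1 and −0.01 with the globin covariate). Fgf10 had an adjusted p under 0.05 in 1 of the 8 fits that left out a library, that without Isl1_hypo replicate 3 (0.00701), and between 0.0532 and 0.105 in the other 7. With the globin covariate it had −1.06 (edgeR adjusted p = 0.835). The second heart field markers, which Fgf10 also belongs to, had 7 lower and 2 higher of 9 tested, with a median of −0.23. Their summed CPM, 337.5 to 362.0 in CTRL and 271.7 to 304.3 in Isl1_hypo, came mostly from Mef2c (273.5 and 233.5 CPM on average). Of 20 genes listed on chromosome 16 around Tbx1, 19 were tested, 11 lower and 8 higher, none past the adjusted threshold, with a median of −0.04 that lay between −0.09 and −0.00055 with 1 library left out. The endothelial junction gene Cldn5 (−1.12), Zdhhc8 (−0.36) and Ranbp1 (0.30) had the smallest p there (edgeR adjusted p = 0.316, 0.429 and 0.493).

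Of 9 chamber genes that Tbx2 and Tbx3 repress, 8 had higher fitted values, 4 of them at an unadjusted p under 0.05 (5.69% of all tested genes), with a median of 0.48. Nppa rose from 312.7 ± 59.5 CPM to 686.1 ± 132.6 CPM (SD, n = 4 each, log2 fold change 1.13, SE 0.17, edgeR adjusted p = 0.0303) and was the only adjusted call. The muscle gene Smpx, named after its values were seen, also did not overlap between the groups (0.62, edgeR adjusted p = 0.0619). Nppa had an adjusted p under 0.05 in 1 of the 8 fits without a library, that without Isl1_hypo replicate 3 (0.00342), and between 0.0547 and 0.104 in the other 7. With the globin covariate it had 1.51 (edgeR adjusted p = 0.519). The median of the list was 0.25 without Isl1_hypo replicate 3. Neither repressor passed the threshold itself.

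The list of genes that Tbx5 activates holds both Nppa, which rose, and Fgf10, which fell, with 10 higher and 7 lower of 17 and a median of 0.15 (0.06 without CTRL replicate 3, 0.08 without Isl1_hypo replicate 4). Downstream of Tbx20 there were 8 lower and 5 higher of 13 tested of 14, and no adjusted call, with Mef2c (−0.23), the Wnt effector Lef1 (−0.30) and Nfatc1 (0.36) at the smallest p. Their median was −0.15, or −0.05 without Isl1_hypo replicate 3 and −0.001 with limma-voom. Nppa, Fgf10 and Mef2c each stand in more than 1 list, so the lists are not separate evidence.

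**Figure D4:**
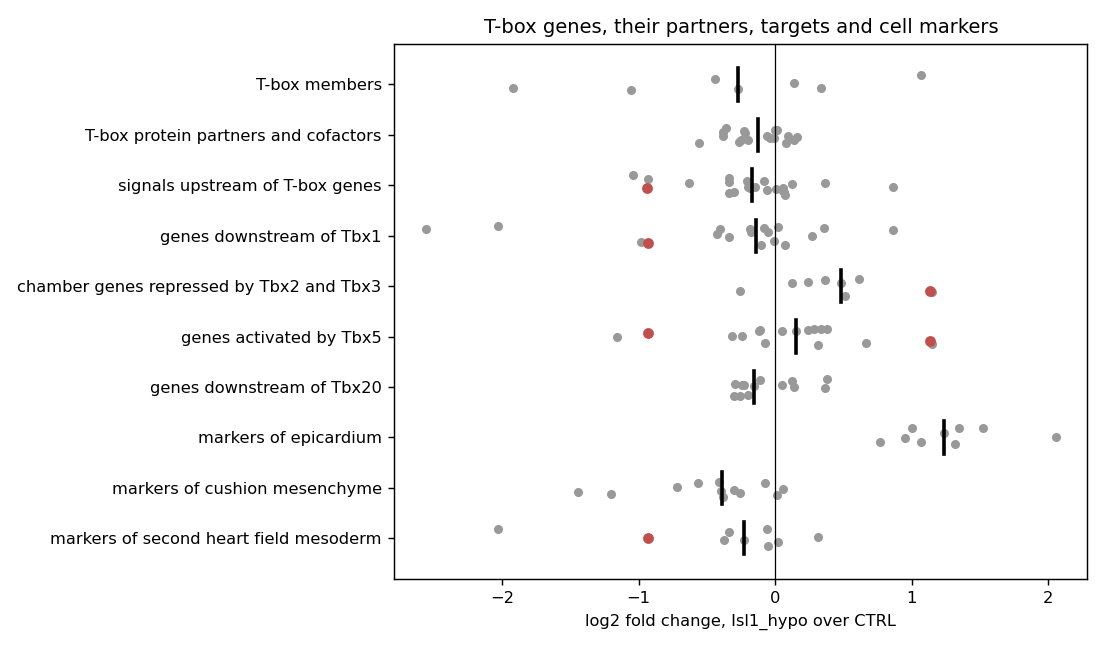
Log2 fold change of Isl1_hypo over CTRL (horizontal axis) of every tested gene of the T-box members and of 9 lists; each point is a gene, red points have an adjusted p under 0.05 and black bars are medians. Bmp4, Fgf10 and Nppa are the red points, and the epicardial markers lie to the right of 0 with a median of 1.24.

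Markers of the remaining cell types were read for the dissection. Of 14 pharyngeal epithelium genes 3 could be tested, Krt8 (0.92), Krt18 (0.80) and Epcam (2.44), all with higher fitted values and none past the adjusted threshold, and Shh was at 0. The summed CPM of the 14 was 67.9, 115.2, 114.9 and 107.2 in CTRL and 302.6, 124.1, 192.3 and 177.2 in Isl1_hypo, and epicardium makes Krt8 and Krt18 as well. Epcam was at 9.83 CPM in Isl1_hypo replicate 1 and at 0.128 to 1.87 CPM in the other libraries, and that library also had the highest Tbx3 and the second highest Tbx5 among the 8. The part of epithelial tissue in these values was not tested. Of 10 neural crest and neural genes 5 could be tested, 3 lower and 2 higher, with a median of −0.45 and no adjusted call: Erbb3 at −0.85, Ednrb at 0.37 and Tubb3 at −0.45. The summed CPM of these 10, 166.2 to 214.0 in CTRL and 177.1 to 237.0 in Isl1_hypo, came mostly from Ednrb, and without it the sum was 51.7 to 86.5 in CTRL and 26.6 to 62.5 in Isl1_hypo. The 9 globin genes all had higher fitted values, 7 at an unadjusted p under 0.05 (5.69% of all tested genes) and 0 adjusted, with a median of 1.66, Hbb-bs (1.29), Hbb-b1 (1.28) and Hba-a1 (2.03) having the smallest p. They are fewer separate measurements than 9, since Hba-a1 and Hba-a2 had identical counts in all 8 libraries and Hbb-bs and Hbb-b1 nearly so. With their level as a covariate edgeR gave no T-box gene an unadjusted p under 0.05, as against 3.62% of all genes tested. The 4 Y-linked genes were higher with a median of 1.85 (Uty, Eif2s3y and Ddx3y 1.88, 1.95 and 1.82, edgeR adjusted p = 0.668, 0.685 and 0.704), and the share of sex in the T-box values was not tested.

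Isl1_hypo replicate 3 had the lowest value within its group for 6 of the 7 members, all but Tbx18. Without it, 4 members had an unadjusted p under 0.05 (Tbx3, Tbx4, Tbx18 and Tbx20, where 10.9% of all genes tested in that fit did) and none an adjusted p under 0.05, with log2 fold changes of 0.66, −1.57, 1.01 and −0.35. Tbx4, Tbx18 and Tbx20 kept an unadjusted p under 0.05 in each of the 8 fits that left out 1 library (edgeR), where 9.26% to 13.8% of all genes tested did.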

How the data were processed

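RNA from the outflow tract and right ventricle of 8 single E10.5 embryos was sequenced on BGISEQ-500, 4 CTRL and 4 Isl1_hypo. Per the study's methods, the authors aligned reads with STAR to mm9, counted them per RefSeq transcript over exons without strand (HOMER), and deposited the raw counts and the RPKM that edgeR gives from them, with the length of each transcript. The table also holds results of the authors' own DESeq2 comparison (mean, log2 fold change, SE, statistic and p-values), which were not used. Columns were matched to samples by group and replicate number.

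For each of 20701 symbols the transcript with the highest mean count was kept. Genes were filtered with filterByExpr (13769 remained), scaled by TMM and tested with edgeR 4.0.16 (R 4.3.3), glmQLFit and glmQLFTest, without covariates, and adjusted by Benjamini-Hochberg over all genes tested. SE is the absolute log2 fold change over the square root of F. Log2 CPM used a prior count of 2. Exact 2-sided permutation tests took all 70 assignments of 4 of 8 libraries, where the smallest p is 0.0286. The common dispersion of 0.0699 (a biological coefficient of variation of 26.4%) and depths of 18422245 to 46678973 counts set the precision, and limits from counts cover counting error only. The scripts were tested on simulated data. Alternatives were RLE and upper-quartile scaling, DESeq2 1.42.0, limma-voom (limma 3.58.1) with sample weights, other filters, other transcript choices, thinning to equal depth, a globin covariate, the replicate number as a block, and each library left out.

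The T-box members and the lists (partners, upstream signals, genes downstream, chromosomal neighbours and cell type markers) were chosen with earlier results of these data known. Isl1 and the members were left out of the lists. Named were Isl1, all members, the 3 genes most like each member, and in each list every gene with an adjusted p under 0.05 and otherwise the up to 3 with the smallest p, plus markers at 0. Other marker and list genes named in the text (Smpx, Nr2f2, Nr2f1, Shox2, Hcn4, Myl7, Tcf21, Lrrn4, Msln, Cldn6, Cdh1, Esrp1, Nkx2-1 and the globin copies) were chosen after their values were seen. Gene coordinates are from GENCODE vM1 on mm9, and promoter sequences from RefSeq on GRCm38.p6. Replicates are separate embryos. Columns of no mapped sample numbered 0. Not every gene of the lists is reported here by name.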

Additional observations from a re-analysis of the deposited data

Results flagged for a closer look

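Tbx2 in CTRL replicate 1 lay apart from its group, at 2.508 log2 CPM where the other 3 CTRL libraries lay between 2.18 and 2.23. Chance marks about 1 in 20 groups of 4 in this way, or 0.8 of the 16 groups examined (Isl1 and the 7 members in both genotypes).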

How the results depend on the processing

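No T-box gene had an adjusted p under 0.05 in any of the 19 alternatives, and no direction of a member turned in those that gave it a value. Tbx1 and Tbx4 could not be fitted when 10 counts were required in every library. The 37 calls over all genes became 330 with DESeq2, 134 with limma-voom, 0 with the globin covariate and 0 with the replicate block, and 4 to 48 with 1 library left out (4, 5 and 8 without CTRL replicates 3, 2 and 1, and 12 and 11 without Isl1_hypo replicates 2 and 4). Calls in the T-box lists, 3 in all, became 9, 7, 0 and 0 in the same order and 0 to 4 with 1 library left out. Members with an unadjusted p under 0.05 numbered 0 with the globin covariate (3.62% of all genes) and 3 to 4 with 1 library left out (9.26% to 13.8%). Isl1 stayed at −2.30 with the globin covariate (adjusted p = 0.519) and −2.29 with the replicate block (0.0721). The list medians moved to 0.39 (activated by Tbx5) and 0.0407 (downstream of Tbx20) with the covariate and to 0.36 (repressed by Tbx2 and Tbx3) with limma-voom, the last between 0.25 and 0.57 with 1 library left out (0.35 without Isl1_hypo replicate 4). Tbx3 was at 0.12 with the replicate block, and Tbx3 and Tbx5 at 0.51 and 0.22 with limma-voom. Bmp4, Fgf10, Nppa and Sln kept their direction with the block, at −0.95, −0.94, 1.13 and −2.28 (edgeR adjusted p = 0.0763, 0.106, 0.051 and 0.102). The causes were not tested. No sign of pairing by replicate number was seen. Same-numbered deviations correlated at 0.0189, −0.0209, 0.0130 and 0.0219, and not every library correlated best with its own number. Such correlations cannot exclude a weak pairing. Tbx1 and Tbx4 had 0 to 116 counts a library.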
